A study of Homo sapiens with 4 samples.

Results

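The regions described here are accessible-chromatin peaks in 11 windows of 1 Mb (hg19), most of them beside centromeres, called by ATAC-seq in the established ovarian cancer cell line OVSAHO. ATAC-seq uses a transposase that cuts and tags open DNA, so a peak marks a place where cut fragments pile up. A peak was a member when it overlapped a window by 1 bp or more. The windows lie on chromosome 10 at 39 to 40 and 42 to 43 Mb, chromosome 4 at 49 to 50 Mb, chromosome 2 at 89 to 90 and 92 to 93 Mb and from base 133000001 to 134000000, chromosome 16 at 33 to 34 Mb, chromosome 17 at 22 to 23 Mb, chromosome 11 at 51 to 52 Mb, chromosome 7 at 61 to 62 Mb and chromosome 18 at 18 to 19 Mb. Merging overlapping narrow peaks of the 4 libraries gave 560 member regions out of 17554 on chromosomes 1 to 22 and X, and merging broad peaks gave 333 out of 36726.

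Of the 4 libraries, 2 came from test cells, labelled as carrying stable SMARCA2 and knockdown of SMARCA4, with SMARCA2 raised and SMARCA4 lowered according to the series' design. The other 2 came from control cells, labelled WT and named OVSAHO-Ctrl-siNC in that design. SMARCA2 and SMARCA4 are alternative motor subunits of the SWI/SNF complexes, which slide and evict nucleosomes. Carboplatin, a DNA-crosslinking platinum compound, was present in both groups at 25 µM for 2 days, so every library shows drug-treated cells. The labels do not say that replicates were separate cultures, so the spread between libraries may be technical. Whether the test cells were 1 clone, and their SMARCA2 and SMARCA4 expression, was not examined here.

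Centromeres are built on long arrays of alpha satellite, a tandemly repeated DNA, and the flanking pericentromeric DNA holds other satellites and segmental duplications. Assemblies such as hg19 represent only part of these arrays, so fragments from many genomic copies can align to the few copies in the reference. For that reason such places are often masked before peaks are called, and a peak in them need not be open chromatin. The last of the chromosome 2 windows differs from the other 10, since it lies on the long arm away from the present centromere, near the remnant of an ancestral one. The content of repeats under the peaks was not tested, because no hg19 sequence or repeat annotation was used, and positions stand in for names.

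The narrow lists rest on nucleosome-free fragments, numbering 6146272 (test 1), 6885374 (test 2), 15828837 (control 1) and 7531794 (control 2). Broad peaks were called on all fragments, 22432549, 23596152, 31515662 and 25452784 in the same order. Control 1 stood apart from the other 3 libraries in depth and in fragment size, with a mean of 131 bp over all fragments against 178 to 182 bp, and the comparisons between groups are given with and without it.

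The windows were picked because they held many regions called in all 4 libraries, so that number is a description of the choice. Their 242 shared regions, as those called in all 4 are named below, made up 43.2% of the 560, where 3.86% of all merged narrow regions were called in all 4. Per window the number ran from 10 on chromosome 18 to 53 on chromosome 10 at 42 to 43 Mb. A window of chromosome X starting at 61 Mb held 16 shared regions and is not in the set, nor are 2 further windows with at least 10. Shared regions were few beyond the window edges, with at most 3 in any adjoining 1 Mb. Some adjoining stretches held no narrow call at all. On chromosome 4 the next calls lay 8116 kb below and 2662 kb above the window. Whether hg19 holds sequence to align to in such stretches was not tested, so an empty stretch need not mean that peaks thin out. The nearest call outside an edge lay 0.656 kb above the chromosome 7 window and was made in test 1 and control 1, while the nearest inside that edge was a control 1 call at 6.37 kb.

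Within a window the peaks were crowded into small stretches. All 20 merged narrow regions of the chromosome 11 window lay in 24.6 kb, and all 27 of the lower chromosome 10 window in 73.7 kb. In the chromosome 18 window 16 of 17 regions lay in 9.27 kb, from 18511063 to 18520335, and in the chromosome 17 window 24 of 27 lay in 16.9 kb, from 22244769 to 22261638. The chromosome 7 window was the most dispersed, split into 19 clusters when regions more than 10 kb apart were separated, and the chromosome 4 and chromosome 16 windows followed with 13 each. Neighbouring shared regions had summits (the points of highest pileup) a median of 1237 bp apart over all windows, and 99 of 231 gaps were under 1000 bp. The closest pair, in the long-arm window of chromosome 2, was 174.5 bp apart, while in the lower chromosome 10 window no pair was closer than 2109 bp.

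The fullest cluster of the chromosome 10 window at 42 to 43 Mb shows the arrangement. It spanned 53.9 kb, from 42355471 to 42409384, and held 51 merged narrow regions, 30 of them shared. Narrow peaks there numbered 33 (test 1), 35 (test 2), 51 (control 1) and 40 (control 2). Broad peaks numbered 17, 13, 22 and 16 in the same order, and covered 15.3, 14.8, 16.8 and 15.1 kb. The 4 libraries thus had broad peaks over nearly equal lengths in a cluster where narrow calls were most numerous in control 1.

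**Figure D1:**
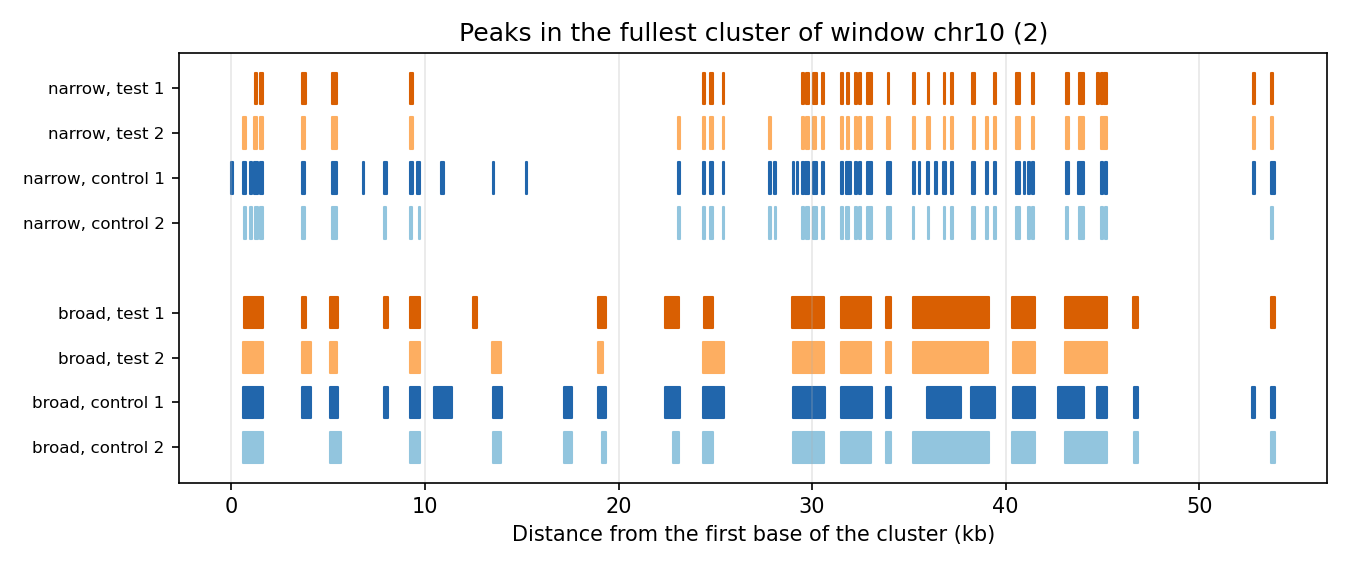
Positions of the peaks in the 53.9 kb cluster of the chromosome 10 window at 42 to 43 Mb (labelled chr10 (2)), as distance in kb from the first base of the cluster. Each bar is 1 peak at its true width, with narrow peaks of the 4 libraries in the upper rows and broad peaks in the lower rows, and most bars stand in the same columns in all libraries.

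The first comparison asked whether the test cells had more or fewer peaks in these windows. Narrow peaks in the windows numbered 287 (test 1), 327 (test 2), 528 (control 1) and 334 (control 2). Control 1 was far above the rest, and control 2 lay just above test 2. Group means were 431 ± 137 for control and 307 ± 28.3 for test libraries (SD, n = 2 each), with p = 0.333 in an exact two-sided permutation test, the lowest value possible with 2 libraries on each side. The difference of 124 peaks was smaller than the control SD. It was 27 without control 1 and 221 without control 2. Broad peaks in the windows numbered 184, 210, 298 and 201 in the same order, with overlapping groups, the means being 249.5 ± 68.6 for control and 197 ± 18.4 for test libraries (SD, n = 2 each, exact two-sided permutation p = 0.667). This difference of 52.5 was 4 without control 1 and 101 without control 2.

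As a share of each library's list the order turned round. The windows held 8.44% of the narrow peaks of test 1 (95% exact interval 7.52 to 9.42), 7.84% of test 2 (7.04 to 8.70), 5.10% of control 1 (4.68 to 5.54) and 6.14% of control 2 (5.51 to 6.81). The intervals are Clopper-Pearson intervals and cover counting error only. They take each peak as independent, although window peaks lay in clusters, and say nothing of the spread between libraries. Both control libraries lay below both test libraries, with means of 5.62% ± 0.736 and 8.14% ± 0.422 (SD, n = 2 each, exact two-sided permutation p = 0.333). The difference of -2.52 percentage points was -2.001 without control 1. The control share was below the test share, without overlap of the groups, in 11 of the 11 windows. This happened in 15.7% of the 1376 windows of 1 Mb with 5 or more narrow peaks over the genome, and the opposite, which no member window showed, in 18.8%. Without control 1 it again held in 11 of 11 windows, where 30.5% of the 881 windows then counted had it and 33.1% had the opposite. Windows chosen for calls in all 4 libraries tend to hold like numbers in each, so a lower share in longer lists is partly built into the choice. The contrast with all windows is therefore a description. The control lists were the longer ones, at 10360 and 5442 narrow peaks against 3402 and 4171.

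The share depended on that length. When each list was reduced to its 3402 peaks of lowest q, the windows held 287 peaks (test 1), 325 (test 2), 477 (control 1) and 324 (control 2). The groups then overlapped, and the control mean was above the test mean (exact two-sided permutation p = 0.667). Without control 1, control 2 lay between the test libraries at equal lengths. With all 4 libraries, 3 windows, on chromosomes 10 (both) and 18, had both controls above both test libraries and 0 had them below, where 7.49% and 11.8% of all 841 windows with 5 or more of these peaks did. Without control 1, 3 member windows had control 2 above and 2 had it below, where 22.4% and 22.1% of 669 windows did. Broad shares were 2.07%, 1.51%, 1.61% and 1.51% in the order test 1, test 2, control 1 and control 2, and the groups overlapped. The difference was -0.229 percentage points with all libraries and -0.282 without control 1.

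**Figure D2:**
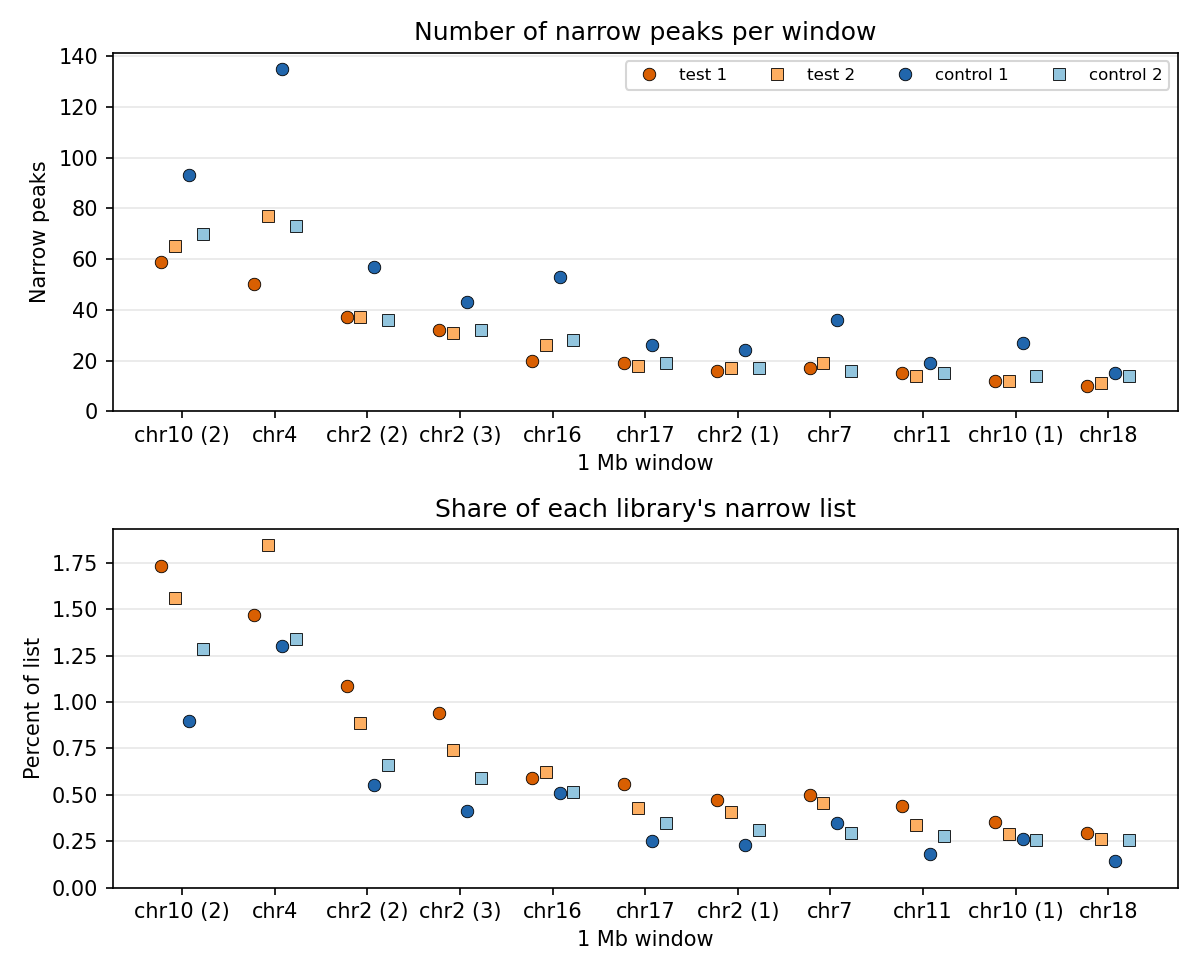
Narrow peaks in each window (upper panel, number) and the same as a percentage of that library's narrow list (lower panel), with 1 point per library and both axes starting at 0. Windows carry the chromosome's name and, where a chromosome has several, a number in order of position, and control 1 (dark blue circle) has the most peaks in 11 of 11 windows while both controls lie below both test libraries in share.

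Control 1 had the most narrow peaks in each of the 11 windows, and the order of the other libraries varied between windows. The chromosome 4 window held 50 narrow peaks (test 1), 77 (test 2), 135 (control 1) and 73 (control 2). Control 1 was high, test 1 low, and control 2 lay below test 2. In the chromosome 10 window at 42 to 43 Mb the numbers were 59, 65, 93 and 70 in the same order, and in the chromosome 16 window 20, 26, 53 and 28, so in both the 2 control libraries lay above both test libraries. The lower chromosome 10 window had 12, 12, 27 and 14. By contrast the chromosome 2 window at 92 to 93 Mb had 37, 37, 57 and 36, and that of chromosome 11 had 15, 14, 19 and 15. Among the 11 windows 4 had both controls above both test libraries in number of peaks and 0 had them below, where 34.2% and 1.67% of the 1376 windows over the genome did. The member windows were therefore near the genome-wide share. Without control 1, 4 had control 2 above and 2 had it below, where 51.1% and 8.17% of 881 windows did.

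The second comparison asked which libraries called the same regions. Control 1 called 525 of the 560 merged narrow regions (93.8%, where it called 58.9% of all merged narrow regions), test 1 called 285 (50.9%, where 19.2%), test 2 called 326 (58.2%, where 23.5%) and control 2 called 333 (59.5%, where 30.8%). Windows were chosen for calls shared by all 4, so these rates and the share of single calls describe that choice. A single library made the call in 192 (34.3%), where 80.7% of all merged regions were of that kind. Of these, 163 were called in control 1, which is 29.1% of the 560, where 49.9% of all merged regions were calls of control 1 alone. The others were 13 of test 2, 10 of control 2 and 6 of test 1. Calls of control 1 alone were weaker than its shared ones. Their median fold enrichment (pileup over the local background of the same library, as the authors deposited it) was 5.05 against 7.77 within the control 1 list, and their median pileup 24 against 116 fragments. A broad peak of control 1 lay over 66.9% of the former and 94.3% of the latter. The chromosome 4 window had the most regions of control 1 alone, 49 of 145. The chromosome 16 window followed with 23 of 57 and the chromosome 10 window at 42 to 43 Mb with 19 of 95. By share the lower chromosome 10 window was first, with 13 of 27, and the chromosome 7 window next, with 18 of 41.

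**Figure D3:**
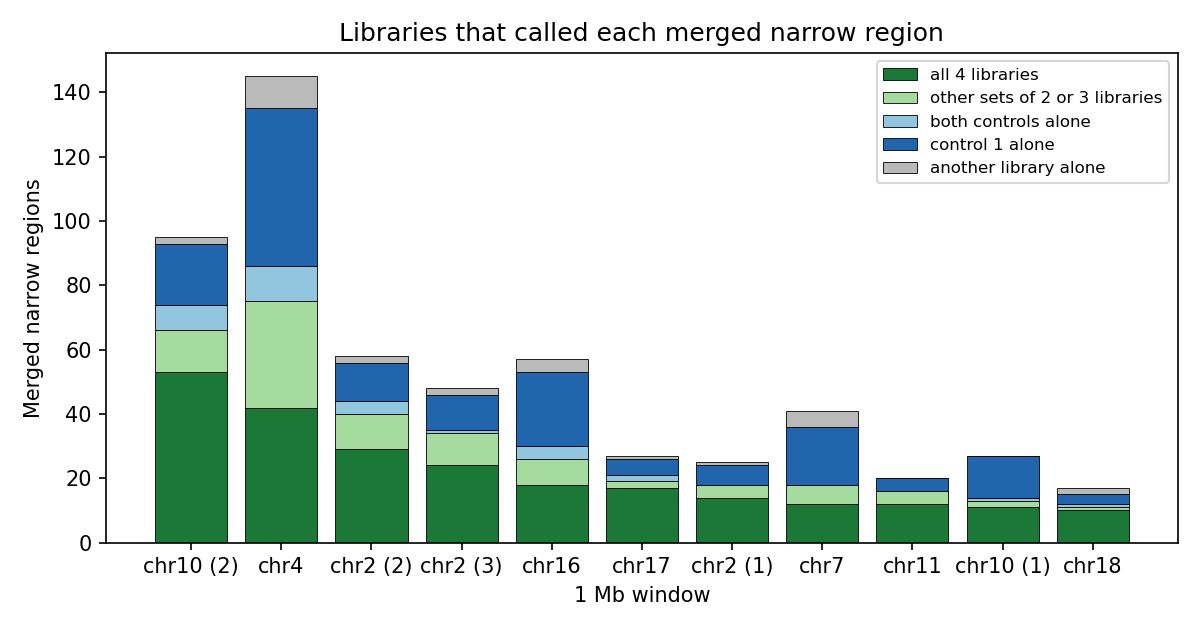
Stacked numbers of merged narrow regions in each window by the libraries that called them (y axis, regions). Dark green marks regions called in all 4 libraries, from 10 to 53 per window, and dark blue those of control 1 alone, from 3 to 49.

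The share of a pair's regions that another library also called describes the choice of windows, which favoured calls in all 4, and is given beside the share elsewhere in the genome. The test libraries had 256 regions in common, and 245 of these were present in control 2 (95.7%, against 80.5% elsewhere) and 253 in control 1 (98.8%, against 35.3%). The control libraries had 317 in common, of which 252 were present in test 1 (79.5%, against 58.6%) and 275 in test 2 (86.8%, against 72.4%). Of the 310 common to test 2 and control 1, 253 were present in test 1 (81.6%, against 51.8%). For the 258 common to test 1 and control 2 the share present in test 2 was 94.96%, against 67.1% elsewhere. In shared bases over the union (Jaccard index), test 1 and test 2 reached 0.698 within the windows, test 1 and control 2 reached 0.709, and test 2 and control 2 reached 0.704. Control 1 reached 0.521 with test 1, 0.567 with test 2 and 0.586 with control 2. Elsewhere in the genome the index of control 1 with any library was at most 0.0865. Windows were chosen for calls shared by all 4, so high indices within them are a description.

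Control-only regions, with narrow peaks in both controls and neither test library, numbered 32 of 560 (5.71%, where 1.25% of all merged narrow regions were control-only). Test-only regions numbered 0, where 1.25% of all were test-only. A test-only region must lack a control 1 call, and 35 of the 560 regions did. Both readings depended on the control libraries. Without control 1, 42 of 397 merged regions were control-only (10.6%, where 33.1% of all were), and 11 were test-only (2.77%, where 3.16% of all were). Without control 2, 195 of 551 were control-only (35.4%, where 60.3% of all were) and 3 were test-only (0.544%, where 5.9% of all were). The control-only share of the members was thus above that of all regions with both controls and below it when either was left out, and the test-only share was near that of all regions without control 1. Without test 1, 42 were control-only and 13 test-only (7.58% and 2.35%, where 1.6% and 11.1% of all were), and without test 2, 65 and 6 (11.8% and 1.09%, where 2.48% and 8.45% of all were). The highest ranked control-only region, on chromosome 10 at 42815345 to 42815441, reached fold enrichments of 22.2 (control 1) and 23.3 (control 2) and lay 215125 bp from the nearest shared region. It had a broad peak in test 2 and in control 1. Next came chromosome 10 at 39144156 to 39144225, with 9.48 and 8.82 and no broad peak in any library, and chromosome 10 at 42365063 to 42365209, with 7.64 and 8.55 and broad peaks in all 4. The remaining named regions lay on chromosome 10 at 42728490 to 42728587 (5.62 and 5.63) and on chromosome 4 at 49332756 to 49332827 (4.96 and 6.48).

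Most control-only regions were weak and lay close to shared ones. Their median fold enrichment was 4.05 in control 1 and 4.26 in control 2, below the medians of 5.81 and 6.55 over all window peaks of those libraries. Of the 32, 19 lay within 1000 bp of a shared region. Members were crowded, with summits of neighbouring shared regions a median of 1237 bp apart. The distance was not compared with that of other members, so closeness need not be particular to control-only regions. Broad calls of at least 1 test library covered 28 of the 32, and those of both controls covered 24. In broad peaks 9 of 333 merged regions were control-only, where 1.24% of all merged broad regions were, and 0 were test-only, where 1.03% of all were. Without control 1, 27 of 263 were control-only (10.3%, where 24.4% of all were) and 10 were test-only (3.802%, where 2.49% of all were). The strongest of the 9, on chromosome 7 at 61608193 to 61608953 (fold enrichment 9.23 and 7.73), overlapped a narrow peak in control 1 and in each test library.

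The leading shared region of each window was chosen among those called in all 4 libraries, as the one whose lowest rank by fold enrichment over the 4 lists was best. In 6 of the 11 windows it also had the highest fold enrichment of all narrow peaks of the window in every library, and in 5 another peak was higher in at least 1 library. In the chromosome 10 window at 42 to 43 Mb that peak was, in both controls, the control-only region described above. On chromosome 17, at 22020676 to 22020810, the fold enrichment was 88.2 (test 1), 91.9 (test 2), 62.6 (control 1) and 96.8 (control 2). It was the highest of all window peaks in each library, and it stood 225 kb away from the other shared regions of its window. On chromosome 2, at 92269422 to 92269758, the values were 42.6, 41.3, 48.3 and 46.6, and on chromosome 16, at 33887625 to 33887811, they were 31.5, 42.3, 56.6 and 43.6. These are the authors' values within each list and were not tested between libraries.

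The other windows had lower leading regions. That of the lower chromosome 10 window, at 39138105 to 39138240, had fold enrichments of 28.1 (test 1), 32.8 (test 2), 43.1 (control 1) and 34.5 (control 2). On chromosome 7, at 61085218 to 61085342, the values were 24.9, 23.7, 30.4 and 28.8. On chromosome 11, at 51579451 to 51579693, they were 23.8, 22.6, 23.3 and 26.7, and on chromosome 2, at 89853157 to 89853277, they were 22.4, 21.4, 24.7 and 21.5. The remaining 4 leading regions lay between 9.84 and 22.6 in every library. They were on chromosome 10 (42527969 to 42528098), chromosome 4 (49653384 to 49653541), chromosome 18 (18520157 to 18520335) and chromosome 2 (133038133 to 133038244). Among the 11 leading regions the 4 summits lay within 2 to 15 bp of each other.

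Summits repeated closely over the whole set. The 4 summits of a shared region spanned a median of 11 bp in the windows and 20 bp in the 436 shared regions elsewhere, and 181 of 242 (74.8%) spanned at most 20 bp against 222 of 436 (50.9%). Shared regions of the windows also had the higher pileup, a median of 71.6 fragments (mean of 4 libraries) against 27.25. Among regions above the median pileup of all shared regions, the spans were 10 bp in the windows (198 regions) and 11 bp elsewhere (139). Below it they were 15 bp (44 regions) and 28 bp (297). Regions are not replicates, and no test was run. Narrow peaks of the windows had a median width of 98 bp (test 1), 97 (test 2), 99 (control 1) and 96 (control 2), so the group means were equal at 97.5 bp (exact two-sided permutation p = 1).

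Many of these peaks stood on a high local background. MACS2 takes the background of a peak from the surrounding 10000 bp, and it is given here as a multiple of the genome background of the same library. No control sample was used, so fragments of the peak and of its neighbours count in this background. Their part in it was not tested. The median over window peaks was 34.7 (test 1), 37.1 (test 2), 28.9 (control 1) and 37.8 (control 2), while peaks elsewhere had medians of 2.17, 1.98, 1.62 and 2.01. Control 1 was the lowest and control 2 the highest, so the groups overlapped (33.4 ± 6.33 for control and 35.9 ± 1.63 for test libraries, mean ± SD, n = 2 each, exact two-sided permutation p = 1). Without control 1 the control value lay 1.94 above the test mean. The level differed widely between windows. In the chromosome 18 window it was 107 (test 1), 96.6 (test 2), 84.4 (control 1) and 99.0 (control 2), and in the chromosome 10 window at 42 to 43 Mb it was 81.1, 73.6, 62.8 and 79.8. At the other end, the lower chromosome 10 window had 5.27, 6.51, 8.33 and 6.38, and the chromosome 7 window 11.004, 9.25, 2.85 and 9.66. Control 1 was the lowest library in 7 of 11 windows.

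**Figure D4:**
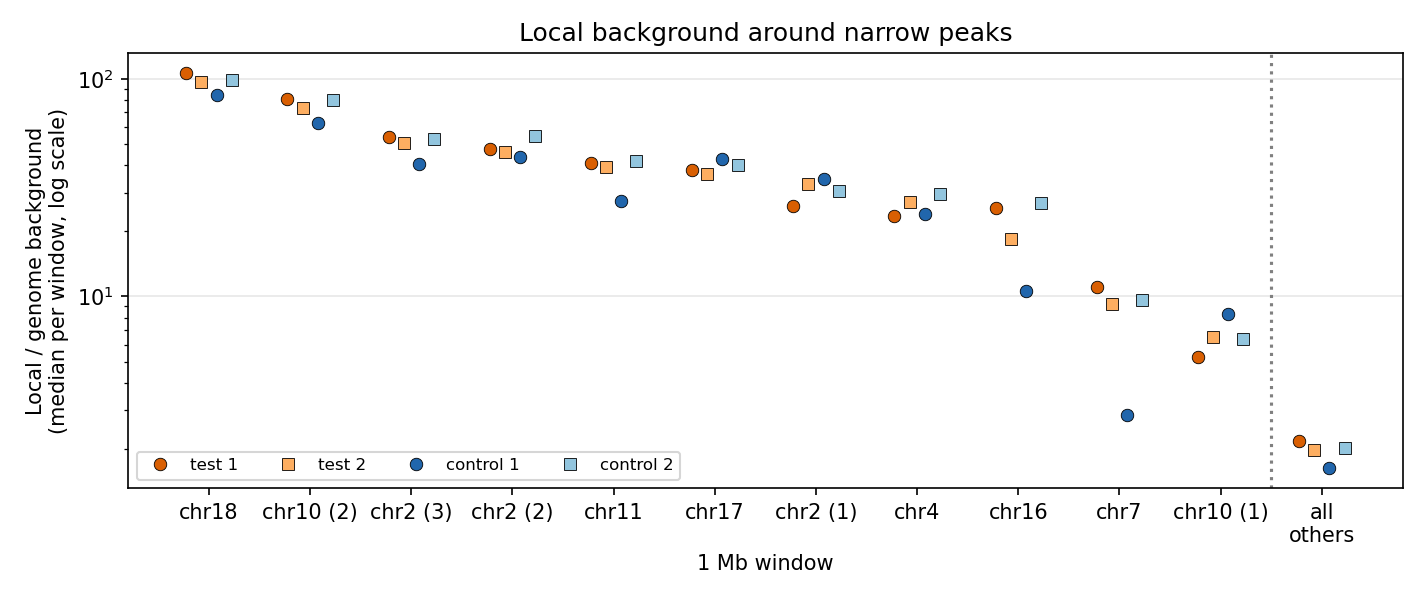
Local background around narrow peaks, as a multiple of the genome background of the same library, with 1 point per library giving the median over the peaks of a window (y axis on a log scale). The windows fall from about the level of chromosome 18 (84.4 to 107) to that of the lower chromosome 10 window, labelled chr10 (1) (5.27 to 8.33), all above the medians of peaks elsewhere on the right (1.62 to 2.17).

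The window peaks were high by pileup and less so by fold enrichment, which divides by this background. Their median pileup was 47 fragments (test 1), 47 (test 2), 63.5 (control 1) and 51 (control 2), against 7, 7, 8 and 7 elsewhere. Median fold enrichments were 6.90, 6.55, 5.81 and 6.55 in the windows against 5.91, 5.63, 5.11 and 5.76 elsewhere. Peaks with a −log10 q of at least 5 made up 93.03%, 90.8%, 87.1% and 92.8% of those in the windows, against 40.8%, 34.7%, 22.3% and 38.3% elsewhere. Of the 100 narrow peaks with the highest fold enrichment, 20 lay in the windows (test 1), 19 (test 2), 15 (control 1) and 17 (control 2). Of the whole narrow lists the windows held 8.44%, 7.84%, 5.10% and 6.14% in the same order. Windows were chosen for calls shared by all 4 libraries, so these contrasts with peaks elsewhere describe that choice at least in part.

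Relative pileup was then compared over the same 678 regions called in all 4 libraries genome-wide, each pileup being divided by the median over those regions in its own library. Among the 242 members both controls lay above both test libraries in 71 (29.3%) and below in 31 (12.8%), where 18.1% of all shared regions lay above and 15.9% below. The median control minus test difference of the members was 0.08 on the log2 scale, against -0.02 over all shared regions. Without control 1, control 2 lay above both test libraries in 90 members (37.2%) and below in 66 (27.3%), where 34.8% and 32.6% of all shared regions did. The members' median was then 0.04, against 0.02 over all. Without control 2, control 1 lay above in 135 (55.8%) and below in 59 (24.4%), where 37.9% and 37.5% did, so the members' share of higher values stood further above that of all shared regions for control 1 than for control 2. With pileup divided by the fragments of the library instead, 26 members lay above and 61 below, against 49 and 195 of the 678, so the direction of the members' split depended on the scaling. That scaling shifts every region of a library by the same amount, moving the median of all shared regions to -0.20 and that of the members to -0.10. The counts per window are for pileup divided by the median of all shared regions, with all 4 libraries. By these, members with both controls above were most frequent in the lower chromosome 10 window (7 of 11) and the chromosome 4 window (17 of 42). The chromosome 7 window had 0 above and 4 below out of 12. Control 1 itself lay a median of 0.37 (lower chromosome 10) and 0.27 (chromosome 4) above the mean of the other libraries on the log2 scale. These were the highest medians among the windows, and that of the chromosome 7 window, -0.10, was the lowest. Counts per window without control 1 are not given here.

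The region of chromosome 17 at 22020676 to 22020810 stood out from the other members in control 1. Its pileup was 366 fragments (test 1), 346 (test 2), 164 (control 1) and 499 (control 2), although control 1 was the deepest library. The chromosome 2 region at 92269422 to 92269758 had 122, 112, 285 and 161 in the same order. In ratio to it, the chromosome 17 region stood at 3 (test 1), 3.09 (test 2), 0.575 (control 1) and 3.10 (control 2). Among the 678 shared regions it ranked 8, 10, 90 and 7 by pileup. In relative pileup control 1 lay 2.16 below the mean of the other 3 libraries on the log2 scale (log2 gap -2.16), and the next lowest member, on chromosome 2 at 133011920 to 133012016, had a gap of -0.83.

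A cluster of 10 shared regions on chromosome 1, from 564478 to 569978, had gaps between -2.65 and -1.75, with a median pileup of 314.5, 275, 132 and 437 fragments in the order test 1, test 2, control 1 and control 2. That cluster lies in a well-known nuclear copy of mitochondrial DNA, and it was chosen for comparison after its values were seen. Mitochondrial DNA carries no nucleosomes and is readily cut in ATAC-seq. Whether the chromosome 17 region holds such a copy, and the part of mitochondrial fragments in its values, was not tested. Outside the windows 30 of 436 shared regions had a gap of -2 or lower, against 1 of 242 in them. The other 241 members had a gap from -0.83 to 0.98. Over all 242 members the SD of the gap was 0.325, against 0.797 elsewhere. Members also had the higher pileup (a median of 71.6 against 27.25 fragments), and its part in the smaller SD was not tested.

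**Figure D5:**
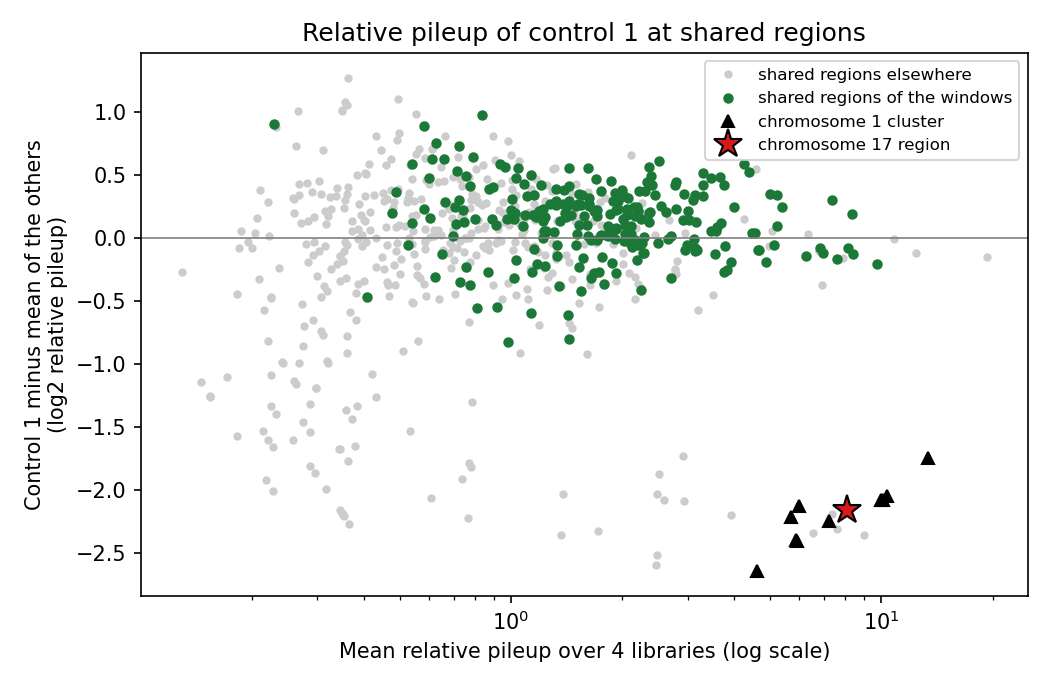
Relative pileup of control 1 minus the mean of the other 3 libraries (y axis, log2) against the mean relative pileup (x axis, log scale) for the 678 regions called in all 4 libraries. Green points are the members, the star is the chromosome 17 region at -2.16, and triangles are the 10 regions of chromosome 1 between -2.65 and -1.75, while the other members lie between -0.83 and 0.98.

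Broad peaks of the windows were wide and often held narrow peaks. Their median width was 624 bp (test 1), 652 (test 2), 427 (control 1) and 671 (control 2), against 349, 334, 260 and 360.5 elsewhere, so control 1 was low in both places. The widest lay on chromosome 2, from 92317784 to 92322820 in test 1 (5037 bp), from 92317335 to 92321099 in control 1 (3765 bp) and from 92317783 to 92322833 in control 2 (5051 bp), and held 6, 7 and 7 narrow peaks of those libraries. In test 2 the widest was on chromosome 10, from 42390682 to 42394568 (3887 bp), with 6. Of the broad peaks over 2000 bp, the windows held 16 of 41 (test 1), 17 of 58 (test 2), 17 of 56 (control 1) and 17 of 58 (control 2). All broad peaks of the windows together covered 161.5 kb (test 1), 184.5 (test 2), 199.2 (control 1) and 180.0 (control 2), a narrower range than that of the numbers of peaks.

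Narrow and broad calls coincided in the windows to a like degree in each library. A broad peak of the same library overlapped 77.7% of the window narrow peaks (test 1), 82.0% (test 2), 83.0% (control 1) and 80.5% (control 2). The groups overlapped, with means of 81.7% ± 1.71 in control and 79.8% ± 3.01 in test libraries (SD, n = 2 each, exact two-sided permutation p = 0.667). The difference of 1.92 points was 0.710 without control 1. It was 2.77 points at a −log10 q of 5 or more and 3.52 at equal list lengths. In both of these settings both controls lay above both test libraries (exact two-sided permutation p = 0.333 in each). Elsewhere the shares were 70.5%, 59.1%, 40.6% and 66.2%, with control 1 low. Of the 242 shared narrow regions 197 (81.4%) lay in a broad region called in all 4 libraries. There were 130 such broad regions among the 333 (39.04%, where 3.04% of all merged broad regions were called in all 4), which describes the choice of windows.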

How the data were processed

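ATAC-seq peak lists of 4 OVSAHO libraries were used, 2 test and 2 control, grouped and numbered by the labels. DNA was tagmented with a commercial ATAC-seq kit, per the labels. Per the submitters' processing notes the build was hg19 and the tools included MACS2 2.2.7.1, Bowtie2 2.3.5.1 and cutadapt 3.2. Each library had a narrow list (nucleosome-free fragments) and a broad list (all fragments), called alone by MACS2 at a q of 0.05 without a control sample, per the file headers, with duplicates kept. As deposited, pileup is a coverage signal, fold enrichment is a deposited ratio to the local background, and the deposited p and q are on the −log10 scale, none normalized between libraries. The deposited peak length is in bp.

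The members and all measures were chosen with earlier results of these data known. Only chromosomes 1 to 22 and X were used, with 1-based coordinates. Local background was recovered as (pileup + 1) / fold enrichment − 1 and divided by the lowest value of the list. Exact two-sided permutation tests (6 assignments) compared group means. Regions named were, per window, the shared one with the highest score (the smallest percentile of fold enrichment over the libraries' lists), the 5 highest group-only ones and each library's widest broad peak. Relative pileup, summits, spacing, the chromosome 1 comparison and the shares over all windows or regions by number of peaks or without a library were added after values were seen. Merging was run on 2000 simulated crowded regions, of which 2000 were assigned to the right libraries. Simulated peaks of a region always overlapped and neighbouring regions never touched, so this outcome was set in advance. It checks only that the code runs as written, and says nothing of neighbouring peaks that touch. Alternatives were lists of equal length, a −log10 q of at least 5, peak centres inside the window, merging at 50% overlap or within 100 bp, each library left out and a replicate block. Computations used Python 3.11.15 with scipy 1.17.1, pandas 2.3.3 and numpy 2.4.6.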

Additional observations from a re-analysis of the deposited data

How the results depend on the processing

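The control excess in numbers of narrow and of broad peaks kept its direction in the 9 alternatives, from 27 to 221 and from 4 to 101 peaks. Among these, the replicate block and its crossed form cannot change a difference, so they are no check of direction. Peak centres inside the window gave the same differences as the main setting (124 and 52.5). The control minus test difference in the share of narrow peaks was -2.52 percentage points and turned to 2.78 at equal list lengths, where the lists are shortened by construction. That in the share of broad peaks was -0.229 and turned to 5.69 at a −log10 q of 5 or more and to 0.320 at equal list lengths (the cause was not tested at the stricter threshold). In both settings only control 1 lay above the test libraries, and control 2 lay below them. At the stricter threshold the shares were 3.96% (test 1), 6.23% (test 2), 17.97% (control 1) and 3.60% (control 2). At equal lengths they were 2.07%, 2.17%, 2.93% and 1.94% in the same order. Leaving out 1 library at a time gave -0.510 to 0.0524 for the broad share, -0.210 to 4.05 points for narrow peaks inside a broad peak (1.92 with all libraries), -7.01 to 1.94 for the relative local background (-2.54 with all), 42 to 195 control-only regions (32 with all) and 3 to 13 test-only regions (0 with all). The shared regions numbered 228 to 275 and the median width differed by -1.5 to 2 bp.

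A replicate block, pairing equal numbers, leaves each difference as it is (124 narrow peaks, 52.5 broad peaks, -2.52 and -0.229 points, 1.92 points, -2.54 and 0 bp). Its exact sign-flip p cannot go below 0.5. The labels share only a number. The deviations of equal numbers correlated at -0.229 over the 678 shared regions, and the crossed pairing, chosen after seeing the data, gave the same differences and 0 calls. Control 1 had the most fragments, and the 163 regions of its own had a median pileup of 24 fragments. Whether the shallower libraries could have called them was not tested.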
